A study of Arabidopsis thaliana with 12 samples.

Results

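The comparison of the Arabidopsis thaliana mutant tfIIfα1 with wild type in mRNA libraries was described across the nuclear genes. Genes were kept if the nuclear chromosomes carry them and their identifier lies outside the range AT4G12640 to AT4G15550, which left 32920 of the 33602 genes in the table. Of these, 20015 had enough counts to be tested. Each group had 3 libraries, made from the above-ground organs of seedlings at an age of 6 days. All groups had 3 days of stratification at 4 °C, then about 21 °C, 1% sucrose in the medium and a day of 16 h light and 8 h dark. The wild-type libraries carry the name 1171WTCol3. The mutant allele, which the labels write tflfalpha-1, affects the TFIIF alpha gene, and the nature of the mutation is not given in the sources used here. A second allele, tflfalpha-2 (tfIIfα2), was sequenced as total RNA beside its own wild type, WTCol0, with 3 libraries each. It was used only to ask which changes differed between the alleles.

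TFIIF is a general transcription factor that binds RNA polymerase II and helps it join the initiation complex at promoters. RAP74 is the name of its large, alpha subunit. In plants, as in other eukaryotes, such general factors act at a wide range of genes, while sequence motifs in promoters, bound by specific factors, tie smaller groups of genes to the clock, to stress or to nutrients.

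The libraries held 55915638 to 66711096 counts, of which 99.97% to 99.99% fell on nuclear genes. The headers of 2 of the 3 tfIIfα1 count columns name the other allele. These libraries, called replicates a and b, were placed in the tfIIfα1 group because their headers carry a run prefix that, among the labels, only the mRNA libraries have. The main counts are therefore also given without them. The left-out range holds 403 genes of the table and was set aside in advance as offset in this wild type. The mutant and wild-type lines have different names, and a difference between lines and the mutation cannot be told apart. Seed and flower markers were near 0, with summed levels of 0.177 to 0.972 CPM (counts per 1000000 counts of a library) and 0.373 to 0.917 CPM over all 6 libraries, and root markers summed to 3.90 to 7.08 CPM. Nothing in the labels says that replicates were grown apart, so the p-values cover the spread among these libraries alone, which may be technical.

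RAP74 (AT4G12610), the targeted gene, lies just before the left-out range. The window of 100 neighbouring tested genes that ends with RAP74 had a median log2 fold change of -0.112, with 27 lower and 10 higher. Medians of all such windows ran from -0.137 to 0.148. The part of this neighbourhood in the change of RAP74 was not tested. RAP74 stood at 21.3, 21.2 and 18.4 CPM in wild type, compared with 14.3, 16.5 and 15.9 CPM in tfIIfα1. Every mutant library was below every wild-type library, with a log2 fold change of -0.38 ± 0.08 (SE) and an adjusted p of 0.0022 in edgeR. Values given with ± for other genes are the same quantities, from 3 libraries a group, and the genes passed at an adjusted p under 0.05 in edgeR unless said otherwise.

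Many genes passed the test in tfIIfα1 (37.8% of those tested), and most of the changes were small. Of 20015 genes tested, 3807 (19.0%) were higher and 3768 (18.8%) lower at an adjusted p under 0.05 in edgeR's quasi-likelihood test. The median fold of the higher genes was 1.32, and 72.8% of them rose by less than 1.5-fold. Among the lower genes the median fold was 1.35, and 66.9% fell by less than 1.5-fold. At least 2-fold changes were rarer, with 439 genes higher (2.19%) and 490 lower (2.45%), and 116 and 72 of these changed at least 4-fold. With replicates a and b left out, 2332 genes were higher and 2268 lower, 314 and 457 of them at least 2-fold, where the lone tfIIfα1 library is assumed to vary as the wild-type ones do.

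The balance between higher and lower genes changed with the level of expression. Of 1392 genes with a mean over 100 CPM, 44.0% rose and 14.7% fell, with a median log2 fold change of 0.131 against 0.003 over all genes tested. Of 6920 genes at 1 to 10 CPM, 13.6% rose and 21.3% fell. Genes at 10 to 100 CPM were nearly balanced, at 22.3% and 20.8%, and those under 1 CPM passed less often in either direction, at 9.14% and 8.26%.

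**Figure D1:**
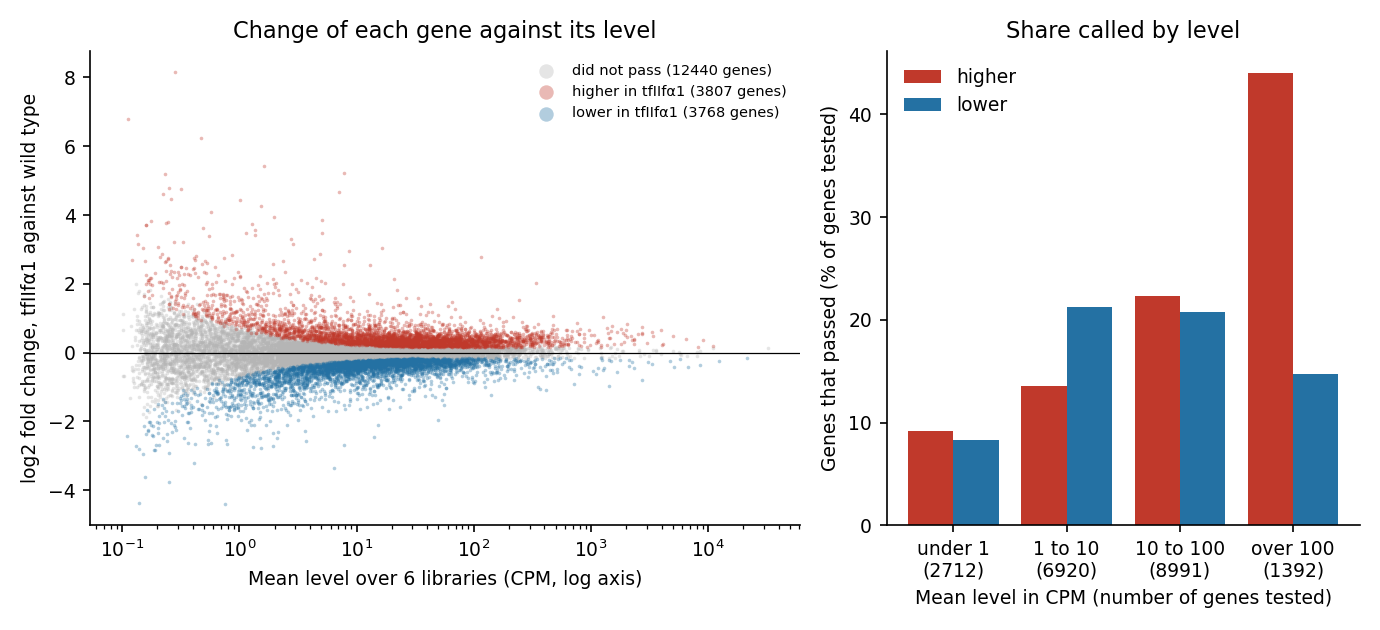
Left, each of the 20015 tested genes by its mean level over 6 libraries (CPM, log axis) and its log2 fold change in tfIIfα1 against wild type, coloured by the call. Right, bars give the share of genes called higher or lower in 4 ranges of level; over 100 CPM the higher share is 44.0% and the lower share 14.7%.

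The chromosomes were alike. Between 18.0% and 19.7% of the tested genes of each chromosome rose and between 18.5% and 19.2% fell, and windows of 100 neighbouring tested genes had medians from -0.137 to 0.148. Protein-coding genes with 1 exon rose in 17.3% and fell in 17.8% of 2938 cases. A large family of such genes encodes pentatricopeptide repeat (PPR) proteins, which bind RNA in organelles, and of 360 tested by name or description 175 fell and 38 rose. Without them, 18.2% of the genes with 1 exon rose and 14.7% fell. Of 189 tested transposable element genes, 42 rose (22.2%) and 14 fell (7.41%). The share higher was near the 19.0% over all genes, and the share lower was below the 18.8%. SDC (AT2G17690), an F-box gene known for the repeats in its promoter that keep it silent, was at 0.324, 0.611 and 0.710 CPM in wild type, compared with 2.53, 1.87 and 1.64 CPM in tfIIfα1. It rose by 1.88 ± 0.29 on the log2 scale (adjusted p = 0.00017 in edgeR).

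The 12 largest rises and the 12 largest falls were taken among genes that passed, had a mean of at least 1 CPM and whose groups did not overlap, as was so for 49.0% of the genes tested. UGT74E2, which encodes a glycosyltransferase of the auxin indole-3-butyric acid, was at 0.310, 0.272 and 0.617 CPM in wild type, compared with 17.2, 19.2 and 9.07 CPM in tfIIfα1. DTXL1, a gene of the MATE family of efflux carriers, was at 0.973, 0.170 and 0.432 CPM against 15.1, 17.9 and 8.34 CPM. AT2G18193, annotated as a P-loop nucleoside triphosphate hydrolase, was at 1.06, 0.373 and 0.509 CPM against 10.2, 11.5 and 7.01 CPM. In all of these replicate b was the lowest of the mutant libraries and still above each wild-type one. Replicate b was the lowest mutant library in 193 of the 439 genes that rose at least 2-fold (44.0%), replicate 1 in 30.1% and replicate a in 26.0%, while over all 3807 higher genes replicate 1 was lowest in 39.3% and replicate b in 36.6%. On the log2 scale UGT74E2 rose by 5.23 ± 0.31, DTXL1 by 4.67 ± 0.35 and AT2G18193 by 3.86 ± 0.27.

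In other large rises the 3 mutant libraries lay closer together. ACT, an acyltransferase gene, was at 0.147, 0.0679 and 0.0463 CPM in wild type, compared with 1.87, 1.98 and 1.97 CPM in tfIIfα1 (4.42 ± 0.36). SEC31A, for a coat protein of vesicles that leave the endoplasmic reticulum, was at 0.118, 0.272 and 0.340 CPM against 3.48, 4.13 and 3.52 CPM (3.93 ± 0.27). BSU1, a phosphatase gene of brassinosteroid signalling, was at 0.206, 0.272 and 0.154 CPM against 2.89, 2.16 and 2.44 CPM (3.57 ± 0.28). All of these genes were low in every wild-type library. The defensin genes PDF1.2B (5.42 ± 0.52), PDF1.3 (4.27 ± 0.40) and PDF1.2A (3.75 ± 0.42) are near-identical copies that share reads, so their separate values are uncertain. ASE3, an amidophosphoribosyltransferase gene named after its values were seen, had 0 counts in every wild-type library and was at 0.746, 0.557 and 0.401 CPM in tfIIfα1. Taking 3 counts over the wild-type group as the limit that 0 counts allow gives a fold of 35.6. That limit assumes sampling noise alone, and replicates differed by more than that, so the true fold may be lower. The gene had enough counts to be tested only through the mutant libraries.

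The largest falls included APRR3, a pseudo-response regulator of the clock, at 14.2, 14.9 and 11.9 CPM in wild type, compared with 2.36, 2.00 and 2.01 CPM in tfIIfα1 (-2.68 ± 0.12). COR27, a night-phase regulator first known from cold, was at 6.61, 7.21 and 5.22 CPM against 0.902, 1.21 and 1.09 CPM (-2.57 ± 0.17). BGLU43, a beta-glucosidase gene, was at 3.44, 3.48 and 3.09 CPM against 0.404, 0.786 and 0.328 CPM (-2.71 ± 0.26). The wild-type libraries lay close together in these genes. They did not in AT2G47115, a gene with no description, where wild type was at 1.47, 5.45 and 0.772 CPM and tfIIfα1 at 0.560, 0.524 and 0.274 CPM. Among abundant transcripts, PSAF, a subunit of photosystem I, fell from 5900, 5730 and 5940 CPM to 4430, 4120 and 4510 CPM (-0.43 ± 0.05). CA1, a chloroplast carbonic anhydrase gene, rose from 4150, 4220 and 4210 CPM to 5690, 5920 and 5820 CPM (0.47 ± 0.05).

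**Figure D2:**
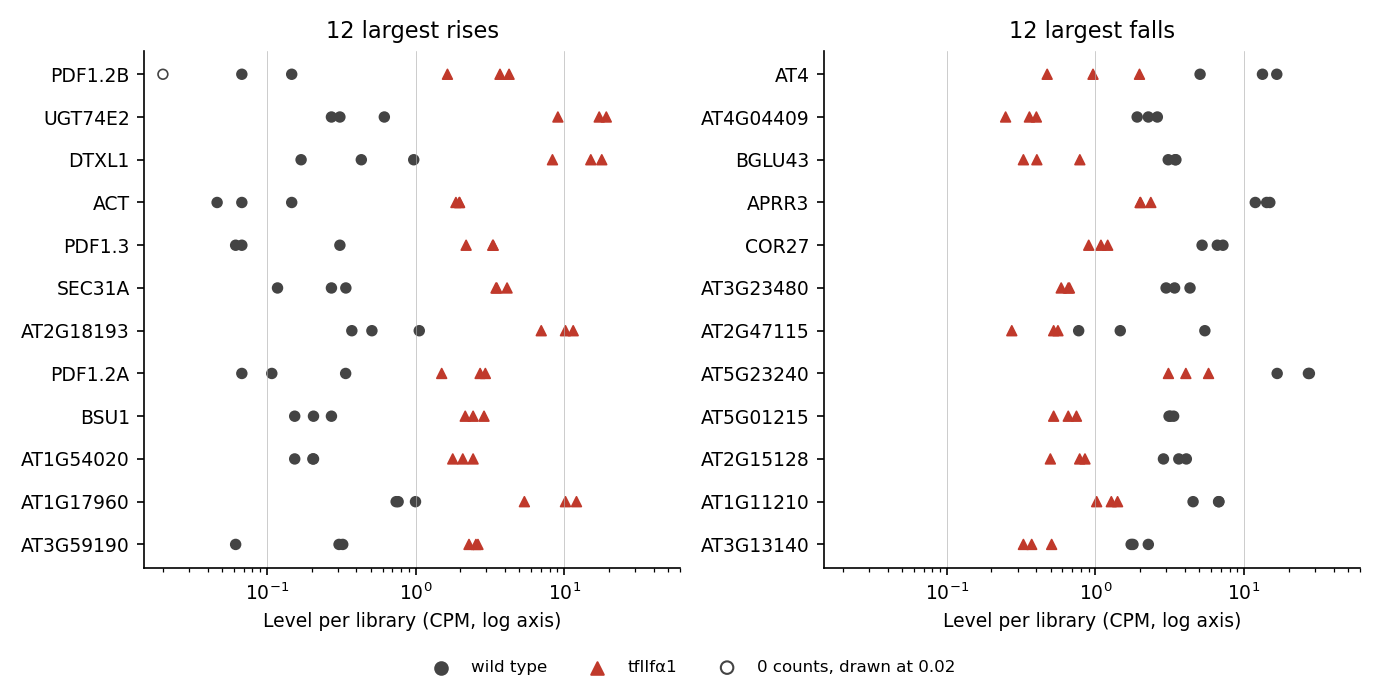
Level in each library (CPM, log axis) of the 12 genes with the largest rise and the 12 with the largest fall; circles are the 3 wild-type and triangles the 3 tfIIfα1 libraries, and an open circle marks a library with 0 counts. No mutant library overlaps a wild-type library, and UGT74E2 and DTXL1 show 1 mutant library below the other two.

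Promoters of the genes that rose most held the mitochondrial dysfunction motif in a larger share than promoters at large. The motif, 13 letters long, begins with CTTG and ends with CANG, with 5 unspecified letters between, and NAC factors are known to bind it and to raise genes when mitochondria fail. In the 500 bases before the gene start, on either strand, 2.92% of 19932 promoters of tested genes held it. Among genes at least 2-fold higher the share was 9.34% of 439, and among those at least 4-fold higher it was 21.6%, or 25 of 116. Among genes at least 2-fold lower it was 2.25% of 489. With replicates a and b left out, the share among genes at least 4-fold higher was 13.0%. With a mean of at least 1 CPM the shares were 6.42% of 218 genes at least 2-fold higher and 2.71% of all. The 27 matches in the 25 promoters lay 26 to 460 bases from the gene start, 18 of them within 200 bases. They are shown for the 6 of these genes that had the highest levels or best known roles, with the 13 letters in capitals and 8 bases on either side, read on the strand of the match in the RefSeq assembly TAIR10.1.
DTXL1, chr2:1339663-1339691, minus strand: tattagaaCTTGATTCCCAAGtaatcttt
AT2G18193, chr2:7919415-7919443, minus strand: gtaatttcCTTGCACCGCACGcttccttc
AT1G17960, chr1:6183852-6183880, minus strand: ctctaaagCTTGGCCCGCAAGtcacttta
HSP23.5, chr5:20891045-20891073, plus strand: ttattttaCTTGGAGACCACGcagttcta
anac044, chr3:229002-229030, plus strand: gtatctggCTTGGGGAGCAAGgttagcgg
PDC4, chr5:132043-132071, minus strand: tggttcatCTTGGCAAACAAGttcaaaga
Of DTXL1 the match farther from the gene start is shown.

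Most of the 25 genes were nearly silent in wild type, 20 of them under 0.5 CPM, and 19 stayed under 1 CPM in tfIIfα1. The others included HSP23.5, for a mitochondrial chaperone, which rose by 2.12 ± 0.22 on the log2 scale to 4.96, 6.88 and 4.49 CPM. AT1G17960, a threonyl-tRNA synthetase gene, was at 1.00, 0.764 and 0.741 CPM in wild type, compared with 10.2, 12.1 and 5.40 CPM in tfIIfα1 (3.46 ± 0.26). The DNA damage factor anac044 reached 2.66, 3.67 and 3.5 CPM (2.01 ± 0.21) and the pyruvate decarboxylase gene PDC4 1.35, 1.47 and 1.06 CPM (2.76 ± 0.37). Of the 25 genes, 4 encode proteins with the DUF295 domain, of unknown function. In the tfIIfα2 libraries 7 of the 25 had enough counts, and all 7 had a log2 fold change above 0. The rest had too few counts to compare. Genes this low in wild type can reach enough counts mainly through mutant libraries in which they are high. The shared sign is therefore no test of these genes.

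The evening element, AAAATATCT, was in a larger share of the promoters of lower genes. The clock proteins that peak at dawn are known to bind it and to hold back genes of the evening. It was in 4.40% of all promoters, in 8.18% of those of genes at least 2-fold lower and in 2.96% of those at least 2-fold higher. Among genes at least 4-fold higher the share was 5.17%, or 6 of 116, above that of all promoters. With replicates a and b left out it was in 6.36% of 456 at least 2-fold lower, 3.82% of 314 at least 2-fold higher and 9.78% of 92 at least 4-fold higher promoters, against 4.44% of all, so the order of the classes depends on their threshold and on those libraries. The shorter CCA1 site, AAAAATCT, differed little, at 12.5% of the at least 2-fold lower, 10.9% of the higher and 12.3% of all promoters. SEX1, which starts starch breakdown, carries the element in the stretch of 200 bases shown next, read on the strand of the gene in TAIR10.1 with the element in capitals.
SEX1, chr1:3591229-3591428, minus strand: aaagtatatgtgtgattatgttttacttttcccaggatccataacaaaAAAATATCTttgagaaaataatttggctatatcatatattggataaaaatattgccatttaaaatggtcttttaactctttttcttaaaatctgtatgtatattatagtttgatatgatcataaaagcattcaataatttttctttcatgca
SEX1 has 1 copy, 443 bases from its start. The other motifs differed less between the classes. P1BS, GNATATNC, the site of phosphate-starvation factors, was in 13.1% of the at least 2-fold lower, 9.79% of the higher and 10.6% of all promoters. The GCC box, GCCGCC, a site of ethylene-response factors, was in 5.24% of the at least 2-fold higher, 3.48% of the lower and 4.43% of all promoters. With a mean of at least 1 CPM these shares were 6.88% of 218, 3.05% of 295 and 4.53% of 17234. ACT carries 2 copies of it close to the start, in capitals below.
ACT, chr5:24608405-24608604, plus strand: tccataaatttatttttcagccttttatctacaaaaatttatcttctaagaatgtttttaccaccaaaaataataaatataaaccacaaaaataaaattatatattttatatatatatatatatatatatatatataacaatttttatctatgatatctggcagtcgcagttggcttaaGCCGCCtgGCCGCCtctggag

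**Figure D3:**
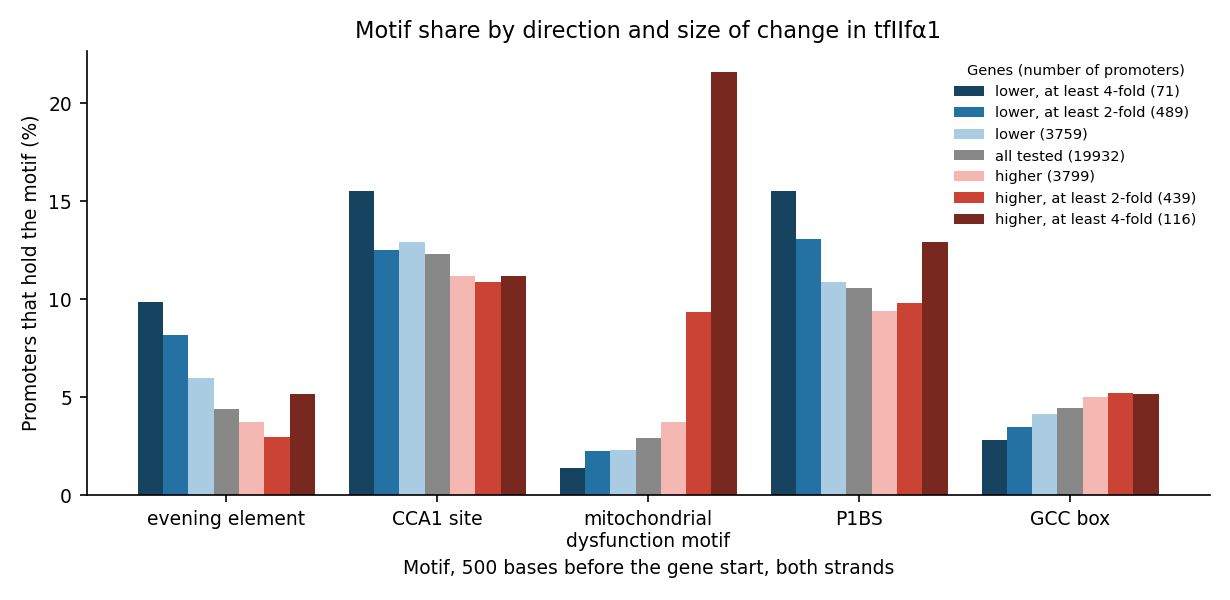
Share of promoters (500 bases before the gene start, both strands) that hold each of 5 motifs, by direction and size of the change in tfIIfα1, with the number of promoters in the key. The mitochondrial dysfunction motif rises from 2.92% of all promoters to 21.6% of those of genes at least 4-fold higher, and the evening element, at 4.40% of all, is in 9.86% of the 71 at least 4-fold lower and 5.17% of the 116 at least 4-fold higher.

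Genes of carbon fixation and photorespiration rose together. Of 29 tested, 22 rose and 0 fell, with a median log2 fold change of 0.397 against 0.003 over all genes, and 21 rose without replicates a and b. All 29 have means over 100 CPM, where 44.0% of genes rose. FBA1, a plastid aldolase, was at 806, 788 and 877 CPM in wild type, compared with 1600, 1750 and 1760 CPM in tfIIfα1 (1.05 ± 0.06). GLO1, for the glycolate oxidase of photorespiration, was at 1100, 1130 and 1130 CPM against 1990, 1900 and 1880 CPM (0.78 ± 0.05). GLDT, of the glycine cleavage complex, was at 1360, 1360 and 1380 CPM against 2220, 2200 and 2240 CPM (0.70 ± 0.05). Each of these differences was far wider than the spread within a group. All 11 listed photorespiration genes rose, by 0.29 to 0.82 on the log2 scale, while the small Rubisco subunits RBCS1A (0.14 ± 0.06), RBCS2B (0.04 ± 0.05) and RBCS3B (0.15 ± 0.06) and the regulators CP12-1 (0.00 ± 0.06) and CP12-2 (0.09 ± 0.07) did not pass. RBCS genes share reads with near-identical copies. The mesophyll markers, of which 2 of 4 were higher, summed to 44800 to 49400 CPM in wild type, compared with 50900 to 52800 CPM in tfIIfα1, and their part in the result was not tested. Less RNA per cell and fewer cells of a type cannot be told apart in these whole-shoot samples.

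Of 22 nitrogen and sulfur genes 6 rose and 4 fell (27.3% and 18.2%), with a median of -0.092. The 3 with the smallest p all rose and encode enzymes of nitrogen assimilation in the chloroplast. GLU1, the glutamate synthase of leaves, was at 1200, 1200 and 1150 CPM in wild type, compared with 1860, 1780 and 1790 CPM in tfIIfα1 (0.61 ± 0.05). NIR1, a nitrite reductase, rose by 0.66 ± 0.06 and GLN2, the chloroplast glutamine synthetase, by 0.56 ± 0.05. ASN1, an asparagine synthetase gene that darkness and low sugar are known to raise, was at 9.54, 5.96 and 4.54 CPM in wild type, compared with 3.08, 0.884 and 1.53 CPM in tfIIfα1. It fell by 1.86 ± 0.33.

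Starch genes changed in both directions. Of 16 tested, 7 fell and 5 rose (6 and 4 without replicates a and b). SEX1, the glucan water dikinase whose promoter is shown above, was at 521, 527 and 450 CPM in wild type, compared with 253, 227 and 233 CPM in tfIIfα1 (-1.07 ± 0.07). DPE1, the disproportionating enzyme of starch breakdown, was at 72.9, 78.4 and 69.2 CPM against 44.5, 44.1 and 40.4 CPM (-0.77 ± 0.07). GBSS1, which makes amylose, was at 16.0, 14.8 and 14.8 CPM against 30.7, 40.1 and 32.0 CPM (1.17 ± 0.09). The groups did not overlap in any of these. ISA3, PHS2, SEX4, LSF1 and MEX1, all of starch breakdown or maltose export, fell by 0.28 to 0.52. The synthesis gene APL1 and BAM1, BAM3 and BAM9, of the beta-amylase family, were higher by 0.35 to 0.70. Many of these genes are known to follow the clock. LHY, a clock gene of dawn, was at 2.11, 1.95 and 2.73 CPM in wild type, compared with 14.2, 11.7 and 14.4 CPM in tfIIfα1, and TOC1, of the evening, at 40.5, 41.1 and 39.3 CPM against 18.3, 15.4 and 13.9 CPM. The hour of harvest of each library is not given in the sources used here, and its part in these changes was not tested.

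With all 6 libraries, light and cold genes were more often lower than higher, while 18.8% of all genes fell and 19.0% rose. Of the light genes 33.3% fell, 14.8% rose and 14 did not pass. Of the cold genes 33.3% fell, 6.67% rose and 9 did not pass. Of 27 genes of light signalling, 9 fell and 4 rose, or 3 and 3 without replicates a and b, so the excess of lower genes is not seen without them. BBX22, a B-box factor of light responses, was at 101, 96.9 and 89.8 CPM in wild type, compared with 69.5, 56.7 and 67.2 CPM in tfIIfα1 (-0.57 ± 0.08). The photoreceptor genes UVR8 (-0.31 ± 0.06) and CRY2 (-0.20 ± 0.07) fell, and PIF7 (0.38 ± 0.08), a factor of shade responses, rose. Of 15 cold genes, 5 fell and 1 rose, or 3 and 1 without replicates a and b. COR413-PM1, a membrane protein gene, had no library above 332 CPM in tfIIfα1 and a mean of 418 CPM in wild type (-0.42 ± 0.07). The cold regulators CBF1 (-0.88 ± 0.59), CBF2 (-0.17 ± 0.21) and CBF3 (0.05 ± 0.29) did not pass.

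Of 23 phosphate starvation genes 11 fell (47.8%), 2 rose (8.7%) and 10 did not pass, against 18.8% lower and 19.0% higher over all genes. Their median log2 fold change was -0.536, and -0.373 without replicates a and b. Among those that did not pass were SPX2 (0.03 ± 0.09), PHO1 (-0.21 ± 0.13) and SQD1 (0.04 ± 0.1). The non-coding RNA AT4 (AT5G03545) was at 13.3, 5.06 and 16.6 CPM in wild type, compared with 0.964, 1.98 and 0.474 CPM in tfIIfα1 (-3.34 ± 0.41). Its relative IPS1 (AT3G09922) was at 1.68, 0.306 and 2.32 CPM against 0.0622, 0.0655 and 0.0730 CPM (-4.39 ± 0.67). PAP17, an acid phosphatase gene, was at 14.9, 8.18 and 13.3 CPM against 6.34, 6.58 and 3.63 CPM (-1.13 ± 0.21). Wild-type replicate 2 lay nearest to the mutant, being the lowest wild-type library in 10 of the 11 genes that fell, against 29.8% of all genes at least 2-fold lower. SQD2, of sulfolipid synthesis, was even across wild type at 65.1, 59.8 and 65.4 CPM and fell to 48.9, 49.3 and 47.1 CPM (-0.39 ± 0.06). The 2 genes that rose were PHR1 (0.24 ± 0.07), the main transcription factor of the response, and PHO2 (0.25 ± 0.06), a ubiquitin-conjugating enzyme that limits phosphate uptake. Phloem markers moved the same way, with 2 of 3 lower and a summed level of 211 to 233 CPM in wild type, compared with 149 to 164 CPM in tfIIfα1. Their part in the result was not tested. Root markers overlapped, at 4.00 to 7.08 CPM and 3.90 to 5.6 CPM.

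Defense lists lay near the shares over all genes, 19.0% higher and 18.8% lower, for ethylene and salicylate and further from them for jasmonate and defensins. Of 24 jasmonate genes 7 rose and 1 fell, with a median of 0.017, and 4 rose and 1 fell without replicates a and b. Genes of synthesis were among both. The lipoxygenase gene LOX2 was at 130, 125 and 119 CPM in wild type, compared with 235, 249 and 208 CPM in tfIIfα1 (0.89 ± 0.07). AOS, for allene oxide synthase, fell from 133, 135 and 116 CPM to 102, 105 and 116 CPM (-0.25 ± 0.07), while AOC2 (-0.06 ± 0.07), AOC3 (-0.32 ± 0.39) and OPR3 (0.03 ± 0.08) did not pass. AOC1, an allene oxide cyclase gene, was at 10.1, 9.59 and 11.2 CPM against 16.7, 19.0 and 17.8 CPM (0.79 ± 0.08). Of the genes that mark a jasmonate response, VSP1 (-0.02 ± 0.29), VSP2 (-0.24 ± 0.14) and JAZ10 (-0.30 ± 0.16) did not pass. In tfIIfα2, VSP1 rose by 2.59 ± 0.41, and its difference between the alleles passed (-2.62, adjusted p = 0.042 in edgeR). Of 16 ethylene genes, 3 rose and 2 fell (18.8% and 12.5%), among them PR4, at 5.59, 5.45 and 6.05 CPM against 8.79, 12 and 12.2 CPM (0.95 ± 0.12), and ORA59 (0.90 ± 0.21), a factor known to act on defensin genes. Of 9 plant defensin genes 4 rose and 1 fell, the same counts as without replicates a and b. The 1 that fell was PDF2.2 (-0.57 ± 0.08). Of 13 salicylate genes 3 rose and 3 fell (23.1% each), with PR5 at 0.65 ± 0.14 and the receptor gene NPR4 at -0.55 ± 0.10.

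In the stress response of the endoplasmic reticulum, 10 of 23 genes rose and 1 fell, and 4 and 1 without replicates a and b. Besides SEC31A, the factor gene NAC103 was at 1.03, 1.29 and 1.62 CPM in wild type, compared with 3.58, 3.18 and 2.70 CPM in tfIIfα1 (1.26 ± 0.20). The other 8 rises were small, from 0.16 to 0.31 on the log2 scale, such as the chaperone genes BIP1 (0.20 ± 0.07) and CNX2 (0.31 ± 0.06). BIP3 (-0.52 ± 0.50), which is known to rise most under such stress, did not pass.

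Of 26 glucosinolate genes 11 rose, 2 fell and 13 did not pass, with a median of 0.222, and 8 and 2 without replicates a and b. SOT16, a sulfotransferase of the last step, was at 43.6, 46.4 and 40.5 CPM in wild type, compared with 70.2, 73.8 and 73.1 CPM in tfIIfα1 (0.73 ± 0.07). UGT74B1, of the step before, was at 48.2, 51.0 and 46.3 CPM against 61.8, 70.8 and 67.9 CPM (0.46 ± 0.07). Both genes that fell encode myrosinases, which break glucosinolates down. TGG1 was at 1990, 1840 and 1800 CPM against 1080, 925 and 849 CPM (-0.98 ± 0.08), and TGG2 at 92.3, 108 and 89.5 CPM against 68.7, 74.4 and 74.4 CPM (-0.41 ± 0.07). TGG1 is known from guard cells, whose lineage markers summed to 88.1 to 95.4 CPM in wild type, compared with 72.6 to 89.0 CPM in tfIIfα1, with 1 of 10, FAMA, lower. Their part in the result was not tested.

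Genes of iron and copper numbered 7 higher and 3 lower of 20, with a median of 0.309, and 5 and 1 without replicates a and b. FRO3, a mitochondrial iron reductase gene that low iron raises, was at 35.3, 31.2 and 31.8 CPM in wild type, compared with 16.7, 16.1 and 14.6 CPM in tfIIfα1 (-1.05 ± 0.08). PYE (-0.62 ± 0.18) and BTS (-0.22 ± 0.08), also of the low-iron response, fell. The iron stores FER2 (0.45 ± 0.16) and FER4 (0.31 ± 0.08) and the metal transport genes YSL1 (0.54 ± 0.07) and NAS4 (0.67 ± 0.09) rose. CSD2, a copper superoxide dismutase of chloroplasts, was at 63.5, 40.4 and 47.3 CPM in wild type, compared with 120, 115 and 73.4 CPM in tfIIfα1 (1.03 ± 0.16), where the libraries of a group were far apart and the groups did not overlap.

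Several groups of genes that act on RNA had more members higher than lower, where 19.0% of all genes rose and 18.8% fell. Of 19 genes of RNA decay and small RNA pathways 10 rose (52.6%) and 1 fell (5.26%). Their median log2 fold change was 0.184, and 0.194 without replicates a and b. The exonuclease gene XRN3 was at 48.3, 47.4 and 49.8 CPM in wild type, compared with 60.4, 64.7 and 61.4 CPM in tfIIfα1 (0.36 ± 0.06), and DCL1, which cuts microRNA precursors, at 35.9, 33.8 and 34.8 CPM against 43.6, 43.5 and 41.2 CPM (0.30 ± 0.06). Of 18 genes of SR splicing factors 7 rose (38.9%) and 2 fell (11.1%), with RS31 at 23.8, 23.4 and 27.4 CPM against 39.5, 40.1 and 40.2 CPM (0.68 ± 0.07). These genes make several transcript forms, which counts per gene do not separate. Of 15 Mediator genes, subunits of the complex between activators and polymerase, 4 rose (26.7%), by 0.23 to 0.38, and 0 fell. Their share higher was the nearest of these groups to that over all genes. Their median was 0.073, and 0.014 without replicates a and b. The helicases named next had 50.8% higher and 3.39% lower. Among genes of DEAD-box and related RNA helicases 30 of 59 rose and 2 fell, or 19 and 1 without replicates a and b, with RH26 at 0.70 ± 0.08 and RH52 at -0.45 ± 0.06.

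Auxin and organ development genes had smaller shares of calls than all genes, with 2 of 19 higher and 1 lower (10.5% and 5.26%) and 0 of 16 higher and 2 lower (12.5%). Cell wall genes were close to the shares over all genes, with 3 of 19 higher and 3 lower (15.8% each). Abscisic acid genes were split, with 5 of 18 higher and 5 lower. Among 15 cuticle genes 5 rose and 0 fell, by 0.20 to 0.34.

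**Figure D4:**
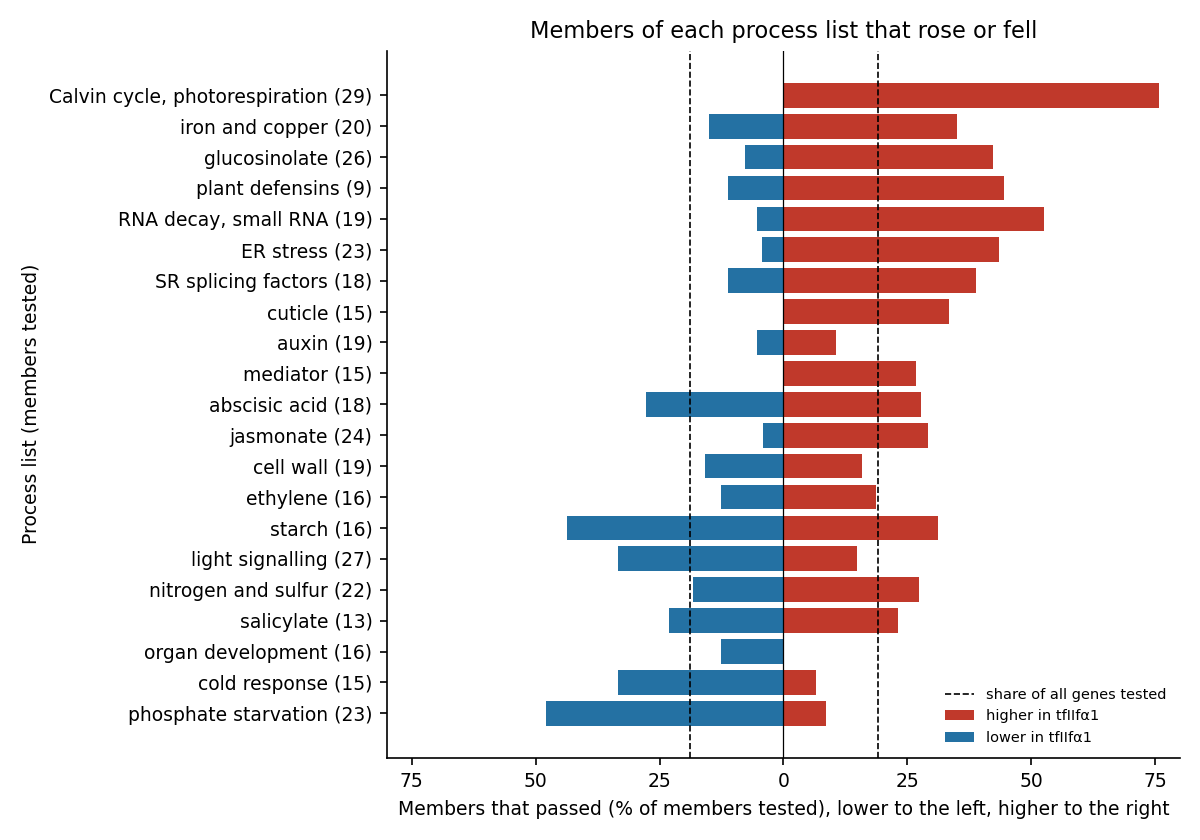
Share of the tested members of 21 process lists that were higher (right) or lower (left) in tfIIfα1, ordered by the list's median log2 fold change; dashed lines mark 19.0% and 18.8%, the shares over all genes tested. Carbon fixation and photorespiration stand at the top with 22 of 29 higher, and phosphate starvation at the bottom with 11 of 23 lower.

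Families of detoxification and transport had more members higher than lower, where families were gathered by name and description and their examples chosen after the values were seen. Of 47 glutathione transferase genes 19 rose (40.4%) and 7 fell (14.9%), and of 96 UDP-glycosyltransferase genes 32 rose (33.3%) and 9 fell (9.38%). Of 42 MATE transporter genes 18 rose (42.9%) and 3 fell (7.14%), against 19.0% and 18.8% over all genes. Without replicates a and b the counts were 12 and 3, 25 and 6, and 12 and 1. DTX1, another MATE gene, was at 3.60, 2.70 and 4.41 CPM in wild type, compared with 33.3, 35.5 and 18.9 CPM in tfIIfα1 (3.03 ± 0.21). ABCC3, a vacuolar pump of conjugates, was at 21.7, 18.5 and 20.6 CPM against 49.5, 61.3 and 43.3 CPM (1.34 ± 0.11), and GSTU17, a glutathione transferase gene, at 26.0, 24.3 and 25.6 CPM against 50.3, 65.8 and 54.5 CPM (1.17 ± 0.09). Of 146 cytochrome P450 genes 35 rose (24.0%) and 17 fell (11.6%), nearer to the shares over all genes. Near-identical family members can share reads, so counts of single members are uncertain.

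Families of signalling differed among themselves. Of 190 receptor-like kinase genes 19 rose and 39 fell, or 9 and 16 without replicates a and b. Of 46 WRKY factor genes 5 rose and 10 fell. The shares lower of these families, 20.5% and 21.7%, were near the 18.8% over all genes. Their shares higher were below the 19.0% over all genes. Of 68 NAC factor genes 15 rose and 3 fell, and of 166 F-box genes 38 rose and 14 fell. Of 59 SAUR genes, quick targets of auxin, 10 rose and 1 fell. The NAC, F-box and SAUR shares higher, 22.1%, 22.9% and 16.9%, were near the 19.0% over all genes. Their shares lower, 4.41%, 8.43% and 1.69%, were below the 18.8%. SKIP31, an F-box gene, was at 19.6, 21.6 and 19.7 CPM in wild type, compared with 6.80, 7.86 and 6.84 CPM in tfIIfα1 (-1.50 ± 0.09). Genes of ERF (9 higher, 10 lower of 68), bHLH (9 and 13 of 109) and MYB factors (8 and 6 of 72) had shares below the background of 19.0% and 18.8% in both directions. Peroxidase genes (9 and 9 of 53), at 17.0% each, were near that background.

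Changes in tfIIfα1 were set against those in tfIIfα2, which has its own wild type and another kit, so allele, kit and wild-type line cannot be told apart. Of 18153 genes tested in both, 7252 passed in tfIIfα1 and 587 (3.23%) in tfIIfα2. Of the 587, 534 (91.0%) passed in tfIIfα1 too. These 534 are 7.36% of the tfIIfα1 calls among the genes tested in both, and 530 of them changed in the same direction. The total RNA libraries held 12069295 to 14652749 nuclear counts, against 55903800 to 66698811 in the mRNA libraries. The SE could be much larger in tfIIfα2, as for FBA1 (0.29 against 0.06) and LOX2 (0.37 against 0.07). A gene that did not pass in tfIIfα2 is therefore not shown to be unchanged there. The test of the difference itself, over all 12 libraries, called 36 of 20089 genes (0.179%), 12 more positive and 24 more negative in tfIIfα1. Without replicates a and b it called 2 genes.

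The genes with the smallest p for the difference included APA2, an aspartic protease gene, at 18.2, 20.9 and 16.7 CPM in wild type, compared with 5.74, 5.78 and 7.06 CPM in tfIIfα1, against 5.93, 6.58 and 6.18 CPM in wild type, compared with 5.95, 6.47 and 5.01 CPM in tfIIfα2. The groups stood apart in the former pair and overlapped in the latter. LTP2, for a lipid transfer protein, was at 42.0, 40.0 and 39.4 CPM against 25.4, 29.4 and 32.5 CPM in tfIIfα1, and at 3.89, 6.29 and 3.75 CPM against 20.8, 14.7 and 31.5 CPM in tfIIfα2. It fell in the former and rose in the latter. AT1G53900, annotated as part of a translation initiation factor, did not pass in tfIIfα1 (-0.01 ± 0.08) and rose in tfIIfα2 (1.17 ± 0.14), with a difference of -1.17 (adjusted p = 0.0013 in edgeR). Among the genes described above, SEX1 (-1.07 ± 0.07 and -1.22 ± 0.12), FBA1 (1.05 ± 0.06 and 1.15 ± 0.29) and GLO1 (0.78 ± 0.05 and 0.67 ± 0.11) had differences between the alleles that did not pass (adjusted p = 0.81, 0.97 and 0.86 in edgeR). UGT74E2 was at 5.23 ± 0.31 and 2.75 ± 0.86 and AT4 at -3.34 ± 0.41 and -0.92 ± 0.40, differences that did not pass either (adjusted p = 0.52 and 0.29 in edgeR).

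**Figure D5:**
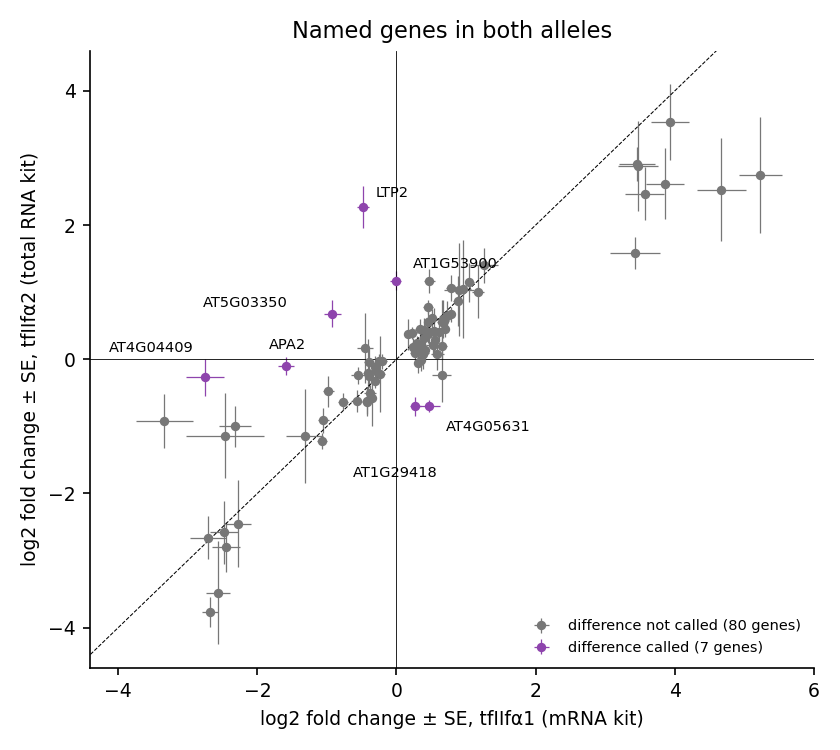
Log2 fold change with its SE for 87 of the named genes in tfIIfα1 (mRNA kit) and tfIIfα2 (total RNA kit), with a dashed line of equal change. The 7 labelled genes, LTP2 and APA2 among them, passed the test of the difference.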

How the data were processed

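The measurements used are the raw counts of 33602 genes as the authors deposited them, per the file headers. Per the submitters' processing notes, TAIR10, edgeR 3.20.1, Bowtie2 2.2.9 and FastQC 0.11.5 were used, in roles not stated, and the counting tool is not given in the sources used here. Not used were the deposited fold changes, 6 raw columns that match no sample of the series and 18 normalized columns.

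Groups came from the labels. The 3 tfIIfα1 and 3 wild-type mRNA libraries were compared by the quasi-likelihood test of edgeR 4.0.16 in R 4.3.3 over the 20371 genes that filterByExpr kept, after TMM normalization, with p-values adjusted by Benjamini-Hochberg and called under 0.05, and the nuclear genes outside the range are described. The biological coefficient of variation was 0.0827. SE was computed as the size of the log2 fold change divided by the root of the F statistic, and CPM from TMM-scaled library sizes. The difference between alleles was the interaction over 12 libraries. Replicates differed by more than sampling noise in every pair of the mRNA groups, with a chi-square of 10.1 to 16.72 per degree of freedom, and 57.6% to 61.5% of the counts were even in 4 libraries against 72.2% and 69.6% in replicates a and b. DESeq2 1.42.0 and limma 3.58.1 were alternatives.

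Gene IDs were matched to the RefSeq annotation of TAIR10.1 (32835 genes), whose nuclear chromosomes have the lengths of TAIR10, for promoters and exon numbers. In simulated data the pipeline recovered 68.7%, 89.6% and 93.9% of genes changed 1.5-, 2- and 4-fold in the tfIIfα1 comparison, and 5.97%, 46.3% and 84.8% in the interaction (20602 genes).

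Members, lists, families and motifs were chosen with earlier results of these data known. Named genes were RAP74, the 12 largest rises and the 12 largest falls among called genes over 1 CPM on average whose groups were apart, the 4 largest gains and 4 largest losses in CPM, up to 3 genes per list by smallest p, the 6 with the smallest interaction p, and for sequences 2 per motif. Other list members, the genes whose motif matches are shown and family examples were picked after their values were seen. The promoter of 1 further gene is not reported here.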

Additional observations from a re-analysis of the deposited data

Results flagged for a closer look

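The change from wild type differed between tfIIfα1 and tfIIfα2 in the test of the difference for these named genes, given as the tfIIfα1 minus the tfIIfα2 log2 fold change with edgeR's adjusted p. LTP2 (AT2G38530) stood at -2.74 (0.0018), AT4G04409 at -2.47 (0.0066), AT5G03350, a lectin gene, at -1.59 (0.0016) and APA2 (AT1G62290) at -1.48 (0.0013). VSP1 (AT5G24780), a jasmonate response gene, stood at -2.62 (0.042) and AT1G53900 at -1.17 (0.0013), and neither passed in tfIIfα1 while both passed in tfIIfα2. AT4G05631 stood at 1.17 (0.0013) and AT1G29418 at 0.98 (0.0056), both without a description. LTP2, AT4G05631 and AT1G29418 passed in each allele, in opposite directions, while AT5G03350, APA2 and AT4G04409 passed in tfIIfα1 and did not pass in tfIIfα2. Kit and wild-type line differ between the comparisons in the same way as the allele does and cannot be told apart from it.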

How the results depend on the processing

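The main counts were 3807 higher and 3768 lower, 439 and 490 of them at least 2-fold. They stayed within 1.5 times under RLE normalization, no filter on low counts, DESeq2, limma-voom and with the range and organelle genes left out. A single fit over 12 libraries gave 2119 and 1978, an adjusted p of 0.01 gave 2503 and 2410, and leaving out both libraries whose headers name the other allele gave 2332 and 2268. A test against a minimum fold of 1.5 called 332 higher and 387 lower, 264 and 305 of them at least 2-fold, and a filter of 1 CPM in 3 libraries left 234 and 319 at least 2-fold, fewer genes being tested. Leaving out each library in turn gave 3082 to 3462 higher, 3037 to 3346 lower, 398 to 464 and 445 to 501 at least 2-fold, and 13 to 34 genes in the test of the difference between alleles. That test called 36 genes, 170 in DESeq2 and 2 without both libraries, and the cause was not tested. AT1G53900, which did not pass, went from -0.01 to 0.01 without wild-type replicate 1, wild-type replicate 3 or tfIIfα1 replicate b, in a range of -0.06 to 0.01 over the left-out libraries.

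No paired analysis was possible because the headers of 2 of the 3 tfIIfα1 count columns name the other allele, and no other column was used to number them. The fits of the allele difference without single libraries were added after seeing the data. Low depth limits genes under 1 CPM, and motif shares in small classes rest on few genes, so they are descriptions only.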
